A study of Homo sapiens with 24 samples.

Results

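The oxidative phosphorylation system of the inner mitochondrial membrane is built from subunits of mixed origin, most of them encoded in the nucleus. Complexes I, III and IV pass electrons from NADH to oxygen and pump protons, and complex V, the ATP synthase, uses the proton gradient to make ATP. The mRNAs of the nuclear subunits are translated in the cytoplasm, partly at the mitochondrial surface, and their products are imported.

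The genes described here are the nuclear-encoded subunits of these complexes, chosen by symbol from the exon count table: 70 of 60308 genes. They comprise 36 subunits of complex I, 8 of complex III, 11 of complex IV and 15 of complex V. NDUFA4, named as a complex I subunit and now assigned to cytochrome c oxidase, was counted with complex IV. The 13 subunits encoded in mitochondrial DNA had 0 counts in every library and were not analysed here.

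RNA was taken from U2OS, a human osteosarcoma cell line, after 4 treatments. Control cells (Ctrl) received the solvent DMSO at 0.12% for 2 h. Sodium arsenite (NaAsO2), which causes oxidative stress and stress granules, was given at 500 uM for 60 min. Whether cells given NaAsO2 alone also received DMSO is not stated, so they may differ from the other groups in solvent as well. RK-33, an inhibitor of the RNA helicase DDX3, was given at 6 uM from 1 h before the stress, alone (RK-33) or followed by NaAsO2 (Combo). Each lysate was spun at low speed to remove nuclei and then faster, to give a soluble fraction and an insoluble pellet enriched in stress granules and P-bodies, so 12 lysates gave 24 libraries in 8 groups of 3 replicates. The pellet is an enriched fraction and not pure granules. The labels only number the replicates. The study's methods state that the whole experiment was repeated to give them and do not describe the cultures further. The p-values therefore measure the spread between these repeats, estimated per gene over all 8 groups and not from the compared groups alone. Counts from fits of the compared groups alone differed and are given near the end.

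Libraries held 8627294 to 15376554 exon counts, of which the 70 genes took 38256 to 66715 in soluble and 18092 to 27731 in insoluble libraries. Levels are given as CPM, exon counts scaled to library size after TMM normalization (the trimmed mean of M values), and each fold change is a log2 difference with its standard error (SE). A level is therefore a share of a library and not an amount of RNA, and in such bulk samples fewer cells and less RNA per cell cannot be told apart. Of the mesenchymal and bone markers, VIM, SPARC, COL1A1, RUNX2 and ALPL had means of 742, 1470, 1550, 65.0 and 11.9 CPM, while COL1A2, SP7 and BGLAP were at 0.307, 0.347 and 0.249 CPM. The muscle subunit isoforms COX6A2 and COX7A1 were at 0.0367 and 1.06 CPM. Of the markers of other cells, the neuronal SNAP25 and SYT1 had the highest means, 10.7 and 9.75 CPM. MALAT1, a nuclear RNA, took 5990 to 15000 CPM in soluble and 1310 to 6860 CPM in insoluble libraries, and NEAT1, another nuclear RNA, 286 to 728 and 811 to 3370 CPM. The third NaAsO2 insoluble library stood apart from its replicates, with a chi-square per degree of freedom of 130 and 142 against them over genes. The third RK-33 soluble library (23.1 and 32.4) and the third Combo insoluble library (25.5 and 32.1) did so less, and other pairs of replicates reached at most 7.01. Many counts of called genes are given without these libraries too, and values of single genes only where stated.

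Per kb of exon, ATP5F1B, the catalytic beta subunit of the ATP synthase (chr12:56638175-56645984, minus strand, GRCh38), had the highest level, 136 CPM per kb, followed by COX8A with 98.9 and NDUFS5 with 70.8 CPM per kb. The median gene had 11.6 CPM per kb. The lowest was NDUFA7, at 0.291 CPM per kb, which with a mean of 0.406 CPM missed the limit of 1 CPM and was not tested. The other 69 genes passed. Another 9 genes had means under 10 CPM: NDUFA13 (1.99 CPM), NDUFA3 (4.92), NDUFB5 (5.68), ATP5ME (5.90), NDUFS7 (6.73), UQCR11 (7.27), ATP5MG (7.38), NDUFA2 (7.76) and NDUFB8 (8.02). Fragments that touched several genes were not counted by the authors, and 14 genes had over 20% of their exon bases under another gene. ATP5ME shared 61.3% of its bases with neighbours, NDUFS7 51.4%, NDUFB8 48.5%, NDUFA7 32.5% and NDUFA13 21.0%. Genes described further below were also among the 14: COX8A (35.4%), NDUFV2 (28.4%), UQCR10 (24.5%), ATP5PO (21.6%) and NDUFC2 (21.0%). The levels of all 14 genes are therefore uncertain. The subunit genes also have processed pseudogenes with near-identical sequence, and the same holds where reads fit both.

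Promoter sequence is shown to describe the set, and its relation to the split of mRNA between the fractions was not tested. NRF1, the ETS factor GABPA and YY1 are known regulators of respiratory chain genes. RefSeq promoters (GRCh38.p14, 300 bases around the start) matched 58 of the genes with 70 start sites and were searched on both strands. The NRF1 letters GCGC, repeated after any 2 bases, stood in 14 of 70 promoters (against 8.32% of 35116 promoters of all genes), the ETS letters CCGGAAG in 19 (27.1%, against 10.3%) and the YY1 letters ATGGCGGC in 12 (17.1%, against 3.0%). In all, 37 of 70 held at least 1 of the motifs, against 6675 of 35116 promoters of all genes. Windows of 30 bases are printed 5′ to 3′ on the strand of the gene with the motif in capitals, for 2 genes whose fraction difference changed strongly with NaAsO2 (ATP5F1C and ATP5PO) and 2 that were higher in the Ctrl pellet (ATP5F1A and NDUFS1). The ETS motif of the latter pair lies on the opposite strand.
ATP5F1C NRF1, chr10:7788145-7788174, plus strand, 22 bases before the start: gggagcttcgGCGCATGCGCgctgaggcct
ATP5PO NRF1, chr21:33915809-33915838, minus strand, 24 bases before the start: acgccaacgcGCGCGTGCGCccttgcgcgt
ATP5F1A ETS, chr18:46098326-46098355, minus strand, 48 bases before the start: gaggggcagtaCTTCCGGgtcaggtgggcc
NDUFS1 ETS, chr2:206159583-206159612, minus strand, 157 bases before the start: ggctggggccaCTTCCGGcggaactgcggg
A match describes these letters and does not show binding. The ETS letters also stood before ATP5PD and UQCRQ, which were lower in the Ctrl pellet. Whether a motif goes with a fraction difference was not tested.

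The first comparison asked how the mRNAs of unstressed cells divided between the fractions. In Ctrl, 55 of the 69 tested genes were lower in the insoluble fraction and 6 were higher, at an adjusted p under 0.05 in edgeR's quasi-likelihood test. Over all 17666 genes tested, 26.6% were lower and 24.4% higher. The median gene was 2.44-fold lower in the pellet, a log2 fold change of -1.28, where the median of all genes was -0.03. Complex IV was lower throughout, 11 of 11 genes with a median of -1.57. Of complex I 25 of 35 genes were lower and 4 higher (median -1.13), of complex III 6 of 8 were lower (-1.37) and of complex V 13 of 15 were lower and 2 higher (-1.16).

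Within complexes the calls are given by role, with no test between roles. The 7 core subunits of complex I, which carry the redox centres, had a median of -0.12, with 3 higher and 2 lower, while 23 of its 28 tested supernumerary subunits were lower and 1 higher (median -1.22). In complex V all 10 subunits of the membrane sector and stalk were lower (-1.26), and the 5 subunits of the catalytic F1 head held both directions, 2 higher and 3 lower (median -1.16).

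COX8A, a small subunit of complex IV, had 71.1, 96.4 and 73.5 CPM in the soluble Ctrl libraries. In the insoluble ones it had 22.4, 22.3 and 15.5 CPM. All 3 pellets lay far below all soluble libraries, a 4.01-fold lower level (SE 0.19 on the log2 scale, adjusted p = 1.66e-08). COX4I1, a subunit that anchors and regulates the complex, was the least affected of complex IV, with 200.3, 235.3 and 210.0 CPM soluble and 85.4, 97.7 and 88.8 CPM insoluble. It was still 2.37-fold lower and its groups did not overlap. UQCR10, a small subunit of complex III (chr22:29767369-29770413, plus strand), had 18.6, 24.4 and 20.7 CPM soluble against 4.65, 6.15 and 5.504 CPM insoluble, 3.89-fold lower. ATP5PD, of the peripheral stalk of complex V, was 3.41-fold lower and NDUFB3, an accessory subunit of the membrane arm of complex I, 3.71-fold lower. UQCRC1, a core subunit of complex III, was the highest of its complex at 0.17 and did not pass (adjusted p = 0.356).

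**Figure D1:**
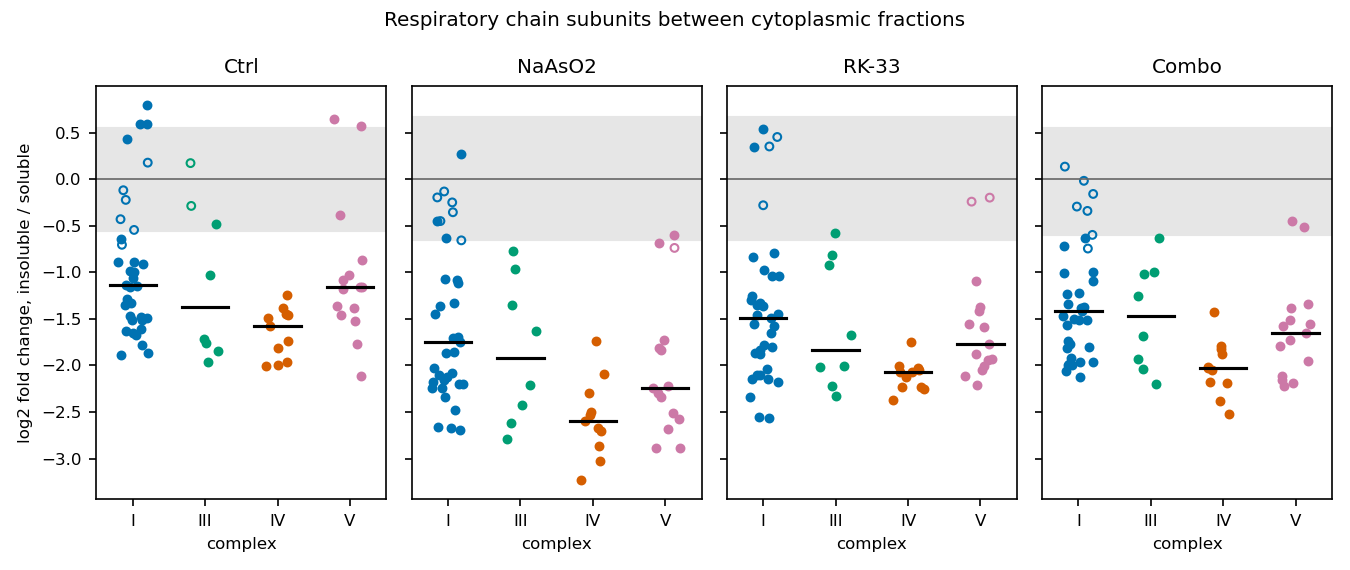
Log2 fold change of insoluble over soluble for each tested subunit (points), by complex and treatment. Filled points passed an adjusted p under 0.05, black lines are medians and the grey band spans the quartiles of all genes tested. In every treatment the 11 complex IV genes lie below 0, and in Ctrl 6 filled points lie above it.

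Of the 6 genes that were higher in the Ctrl pellet, 5 are described, singled out after their values were seen. They were ATP5F1A and ATP5F1B, the alpha and beta subunits that form the catalytic hexamer of the ATP synthase, NDUFS1 and NDUFV2, core subunits of the matrix arm of complex I, and NDUFA10, a supernumerary subunit. ATP5F1B had 233.4, 271.8 and 236.6 CPM in the soluble and 341.7, 390.0 and 424.7 CPM in the insoluble Ctrl libraries. All pellets were above all soluble libraries (log2 0.64, SE 0.13, adjusted p = 0.000329). NDUFS1 had 65.4, 70.8 and 71.3 CPM soluble and 109.6, 118.6 and 132.3 CPM insoluble, the highest ratio of the 69 genes, 1.74-fold (log2 0.80, SE 0.11, adjusted p = 3.23e-06). Again the groups did not overlap. NDUFV2 was 1.5-fold, ATP5F1A 1.49-fold and NDUFA10 1.35-fold higher, with adjusted p of 0.017, 0.00649 and 0.00067. The call for NDUFV2 was lost without the second soluble or the third insoluble Ctrl library (0.40 and 0.54), with library size alone (0.50) and with pseudogene counts added (0.43). Without a filter on low counts NDUFV2 and NDUFA10 had no call (0.49 and 0.33). When a trend of each library over exon length was removed, ATP5F1A lost its call (0.20, adjusted p = 0.394) and NDUFA10 had the other sign, -0.21, without a call.

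With NaAsO2, 61 of 69 genes were lower in the insoluble fraction and 1 was higher, where 29.7% of all genes were lower and 27.9% higher. The median was 4.28-fold lower. Complex IV had the largest median difference, 6.03-fold lower over 11 of 11 genes, and 14 of 15 complex V genes (median -2.24), 8 of 8 complex III genes (-1.92) and 28 of 35 complex I genes (-1.75) were lower. The genes with no call were NDUFS6, NDUFV1, NDUFV2, ATP5F1D, NDUFB7, NDUFA13 and NDUFV3. Without the third NaAsO2 insoluble library 66 genes were lower and 0 higher. The medians were then -2.46 in complex IV, -2.12 in complex V, -1.88 in complex III and -1.84 in complex I.

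NDUFA4 (chr7:10931943-10940153, minus strand) had the lowest ratio of the set. It had 132.5, 129.8 and 151.7 CPM in the soluble and 14.7, 16.2 and 12.9 CPM in the insoluble NaAsO2 libraries. The pellets were all below the soluble libraries by a wide margin, 9.41-fold (log2 -3.23, SE 0.20, adjusted p = 7.07e-12), where the ratio in Ctrl was -1.99. ATP5F1C, the gamma subunit that turns inside the catalytic head (chr10:7788147-7807815, plus strand), had 94.1, 93.3 and 107.2 CPM soluble and 17.1, 15.5 and 6.29 CPM insoluble, 7.43-fold lower with NaAsO2 and 2.23-fold lower in Ctrl. UQCR10 was 6.93-fold and NDUFB4, an accessory subunit of complex I, 6.36-fold lower. ATP5F1C, UQCR10 and NDUFB4 were over 2-fold down in the third NaAsO2 insoluble library against the first and second. With single libraries left out their log2 ratios were -3.03 to -2.55, -2.98 to -2.47 and -2.835 to -2.35. At the other end of their complexes stood UQCRFS1, the Rieske iron-sulfur protein (1.71-fold lower), COX4I1 (3.34-fold lower) and ATP5F1A (1.52-fold lower).

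Of the 6 genes that were higher in the Ctrl pellet, 4 were lower in the NaAsO2 pellet. ATP5F1B had 420.8, 390.6 and 449.1 CPM soluble and 258.9, 294.3 and 227.9 CPM insoluble with NaAsO2 (log2 -0.69, SE 0.13, adjusted p = 9.71e-05). The order of the fractions was opposite to that in Ctrl, with no overlap in either, but with the exon length trend removed the value was -0.21 and the call was lost (adjusted p = 0.212). NDUFA10 had 108.5, 117.3 and 114.3 CPM soluble and 78.6, 68.9 and 72.3 CPM insoluble (log2 -0.63, SE 0.10, adjusted p = 6.19e-06). Here too all pellets were the lower ones. ATP5F1A was lower (log2 -0.60, SE 0.17, adjusted p = 0.00353), but at -0.39 not without the first NaAsO2 insoluble library (adjusted p = 0.0597), nor at -0.55 in a fit of the compared groups alone (adjusted p = 0.0506). NDUFV2 had overlapping values of 8.81, 11.9 and 7.90 CPM soluble and 8.82, 7.09 and 4.63 CPM insoluble and no call, although it passed at -0.49 with the lysate as a block. NDUFS1 was still higher (log2 0.27, SE 0.11, adjusted p = 0.0373), with 95.9 to 108.2 CPM soluble and 109.5 to 141.2 CPM insoluble and no overlap. That call was lost with the lysate as a block (0.26), without the first or second NaAsO2 soluble or the third insoluble library (0.19 to 0.26), in a fit of the compared groups alone (0.32) and without a filter on low counts (0.26), and the value was -0.11 with the exon length trend removed.

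**Figure D2:**
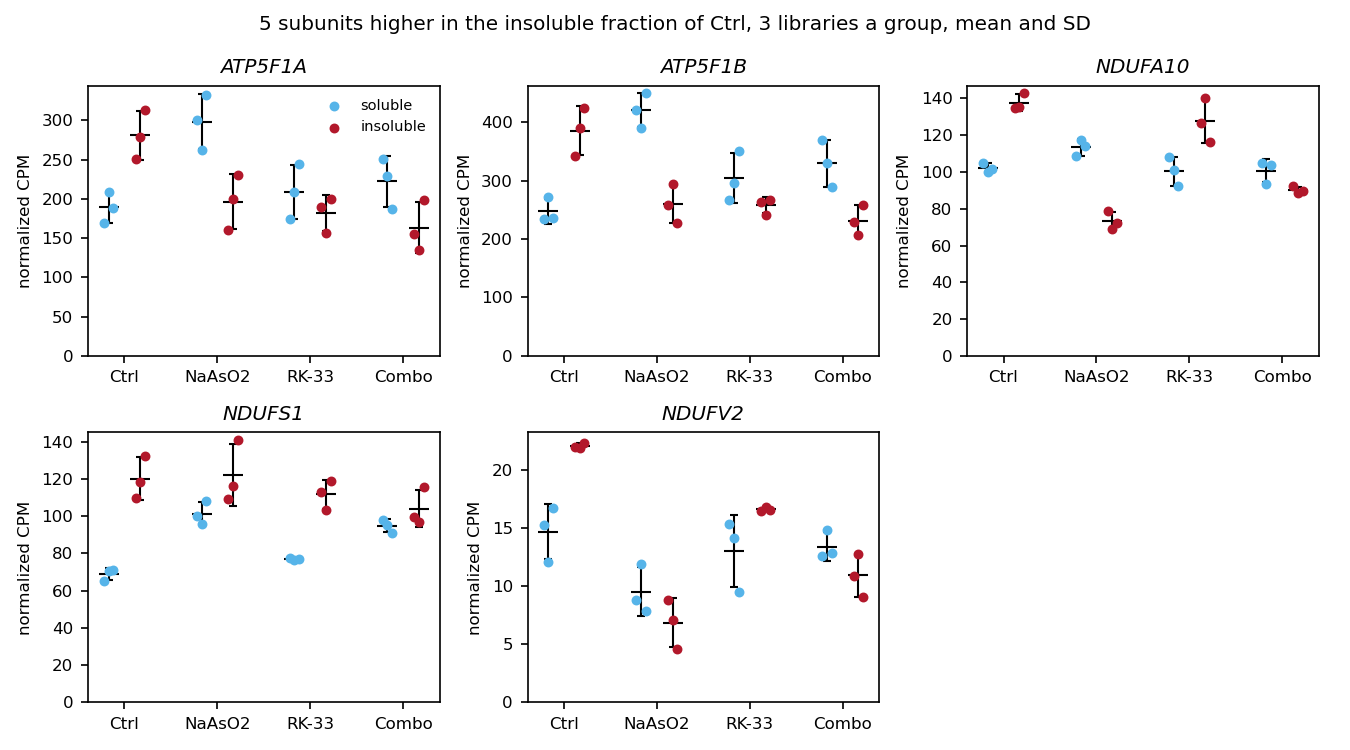
CPM of 5 genes that were higher in the Ctrl insoluble fraction, in each of 24 libraries (points, 3 a group), with the mean and SD of each group. ATP5F1B pellets lie above the soluble libraries in Ctrl (341.7 to 424.7 CPM) and below them with NaAsO2 (227.9 to 294.3 CPM).

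Whether the difference between the fractions itself changed with NaAsO2 was tested as the NaAsO2 ratio minus the Ctrl ratio. It was more negative in 41 of 69 genes and more positive in 0, where 11.4% of all genes were more negative and 11% more positive. The median was -0.76, and 63 of the 69 values were below 0. By complex the calls were 9 of 11 in complex IV, 10 of 15 in complex V, 3 of 8 in complex III and 19 of 35 in complex I, among them 5 of the 7 core subunits and 14 of 28 supernumerary ones. All 6 genes that were higher in the Ctrl pellet were among the 41, as were 32 of the 55 that were lower there. With genes chosen on the Ctrl ratio, that split is a description. Without the third NaAsO2 insoluble library 52 genes passed, with a median of -0.80 over the 69, and without the second Ctrl insoluble library 31.

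Among genes with at least 10 CPM the 4 lowest values were in complex V. ATP5F1C changed by -1.74 (SE 0.30, adjusted p = 0.000228), and by -1.87 to -1.35 with single libraries left out. ATP5PB, the main subunit of the peripheral stalk, changed by -1.45 (SE 0.18, adjusted p = 8.62e-06): it had 83.0, 95.3 and 94.3 CPM in the Ctrl pellets and 53.7, 52.1 and 40.7 CPM in the NaAsO2 pellets, while the soluble levels were 103.2, 137.0 and 115.0 against 159.5, 170.0 and 192.1 CPM. Its pellets were thus all lower and its soluble libraries all higher with NaAsO2. ATP5PO, which joins the stalk to the head, changed by -1.42 (SE 0.31) and ATP5MF, of the membrane sector, by -1.37 (SE 0.33). With single libraries left out ATP5PO ran from -1.67 to -1.05. ATP5F1C and ATP5PO were both over 2-fold down in the third NaAsO2 insoluble library against the first and second. ATP5F1B changed by -1.33, ATP5F1A by -1.18, NDUFA10 by -1.06, NDUFV2 by -1.04 and NDUFS1 by -0.53. The calls of ATP5F1C, ATP5PB, ATP5PO, ATP5MF, ATP5F1A, ATP5F1B and NDUFA10 held in all 24 alternatives. That of NDUFS1 was lost without the first or second Ctrl soluble library, the third Ctrl insoluble or the first NaAsO2 insoluble library (-0.31 to -0.47). It was also lost with a log2 fold limit of 1, with the exon length or the GC trend removed, without a filter on low counts and in a fit of the compared groups alone. Across all alternatives its values ran from -0.59 to -0.21. The call of NDUFV2 was lost without the second Ctrl or the second NaAsO2 soluble library (-0.77 and -0.85), with library size alone and in a fit of the compared groups alone.

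At the other end, NDUFB7, ATP5F1D, NDUFB9 and NDUFS6 had uncalled values of 0.46, 0.45, 0.43 and 0.23. ATP5F1D is the delta subunit of the F1 rotor and the others are accessory subunits of complex I. Their values rested on 1 library. NDUFB7 (chr19:14566078-14572066, minus strand) had 18.1, 20.2 and 78.3 CPM in the NaAsO2 pellets and ATP5F1D 23.8, 22.04 and 103.9 CPM. The third library was far above the other two in both genes, which were at 18.1 to 21.0 CPM and 23.2 to 24.8 CPM in the Ctrl pellets. Without it the 4 genes had values of -0.46, -0.57, -0.31 and -0.75.

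**Figure D3:**
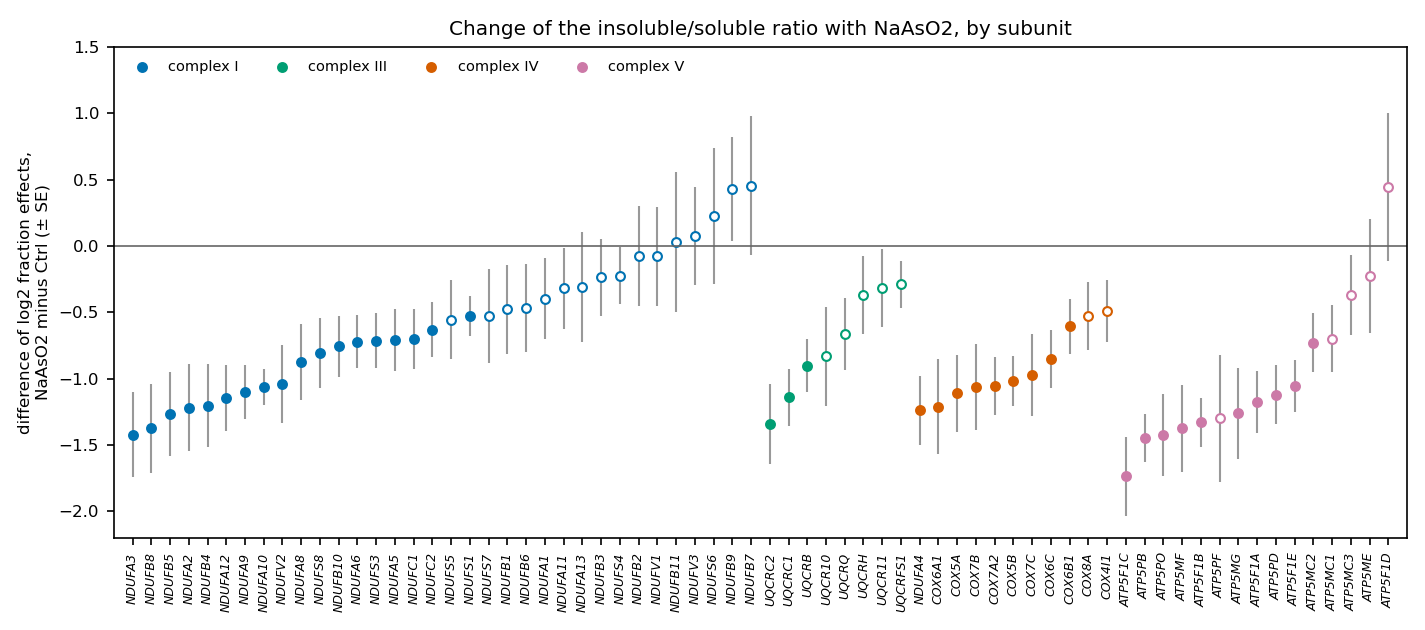
Difference of the log2 insoluble over soluble ratio between NaAsO2 and Ctrl for the tested subunits except 1 that is not shown, with its SE, filled where the adjusted p was under 0.05. The filled points are all below 0, from -1.74 for ATP5F1C, and the 6 values above 0 are open.

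In the third NaAsO2 insoluble library the deviation from the other two rose with the GC content of the mRNA (Pearson r = 0.53 across the 69 genes, which share the library, and 0.71 across 13440 coding genes). In it 12 subunit genes were over 2-fold up and 10 over 2-fold down, with median GC contents of 53.6% and 43.3%. RN7SL1, an abundant cytosolic RNA, took 5.79% of its exon counts, against 0.426% to 1.23% in the other insoluble and 7.51% to 15.5% in the soluble libraries. The third Combo insoluble and the third RK-33 soluble library deviated with GC as well (r = 0.39 and 0.45 across the 69 genes), and the latter had the highest RN7SL1 share, 15.5%. The part of these features in the results was not tested beyond leaving the library out and removing the GC trend.

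**Figure D4:**
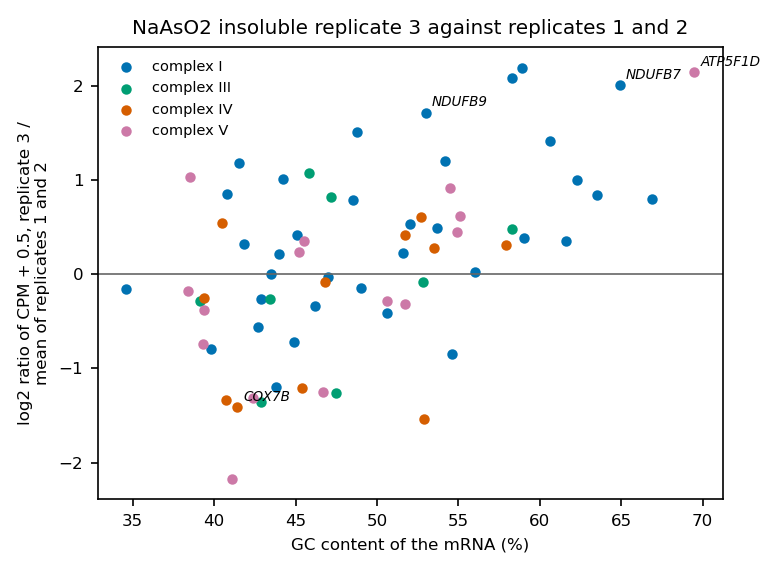
Log2 ratio of CPM + 0.5 in the third NaAsO2 insoluble library over the mean of the first and second, against the GC content of the mRNA in percent, for the subunit genes. Genes with high GC content tend to lie above 0 and those with low GC content below it, r = 0.53 across the 69 genes.

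With RK-33 alone, 62 genes were lower in the insoluble fraction and 2 higher, where 30.4% of all genes were lower and 29.2% higher. The median was 3.44-fold lower, with complex IV at -2.07, complex III at -1.84, complex V at -1.77 and complex I at -1.49. Without the third RK-33 soluble library 60 were lower and 2 higher. NDUFS5, an accessory subunit of complex I, was 5.91-fold, NDUFA4 5.16-fold, UQCRQ, a small subunit of complex III, 5.01-fold and ATP5PD 4.65-fold lower. NDUFS1 (log2 0.54, adjusted p = 0.000222) and NDUFA10 (0.35) were higher. NDUFS1 had 77.4, 76.7 and 77.2 CPM soluble and 113.2, 103.3 and 118.9 CPM insoluble, with all pellets above. Its call was lost without a filter on low counts (0.39, adjusted p = 0.0652) and with the exon length trend removed, where the value was 0.00467 (adjusted p = 0.979). The highest values of the other complexes were -0.58 for UQCRC2, a core subunit of complex III, whose call was lost without the first or second RK-33 insoluble library, -1.75 for COX4I1 and, without a call, -0.20 for ATP5F1A (adjusted p = 0.307).

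The ratio in RK-33 minus that in Ctrl was more negative in 3 genes and more positive in 0 (1.58% and 0.606% of all genes). With the lysate as a block it was more negative in 1, by DESeq2 in 9 and in a fit of the compared groups alone in 22. In the main fit the values of 67 of 69 genes were below 0, with a median of -0.47. An unadjusted p under 0.05 was reached by 24 of the 69, against 2466 of all 17666 genes. The 3 genes were UQCRC1 (-0.99, SE 0.22, adjusted p = 0.0161), ATP5F1B (-0.88, SE 0.18, adjusted p = 0.0126) and ATP5PB (-0.71, SE 0.18, adjusted p = 0.0378). UQCRC1 (chr3:48599002-48610976, minus strand) had 136.5, 161.3 and 154.3 CPM soluble and 161.7, 171.9 and 175.5 CPM insoluble in Ctrl, and 161.8, 195.1 and 232.2 against 113.8, 113.2 and 107.9 CPM with RK-33. Its pellets were slightly above the soluble libraries in Ctrl, a log2 ratio of 0.17 that was not called, and below them with RK-33. Its call in RK-33 minus Ctrl was lost without the first Ctrl soluble or the third library of either RK-33 fraction (-0.85 to -0.94). Without any 1 of these 3 libraries 0 genes passed in this difference. ATP5F1B and ATP5PB lost their calls with the block (-0.87 and -0.72) and when any of several single libraries was left out: for ATP5F1B the first or the third Ctrl soluble or the third of either RK-33 fraction (-0.77 to -0.89), for ATP5PB any of 8 of the 12 libraries compared (-0.62 to -0.69). The uncalled NDUFS5 was at -0.91, and the highest values at 10 CPM or more were UQCR10 at -0.04, NDUFA10 at -0.08, COX7B at -0.10 and NDUFS4 at -0.15.

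In Combo, 62 genes were lower in the pellet and 0 higher, where 28% of all genes were lower and 24.1% higher. The median was 2.99-fold lower, and complex IV was again lowest at -2.03, ahead of complex V at -1.66, complex III at -1.47 and complex I at -1.42. NDUFA4 was 5.73-fold lower, with 107.2, 92.2 and 82.6 CPM soluble and 21.3, 18.2 and 9.78 CPM insoluble. The groups did not overlap. Without the third Combo insoluble library 65 genes were lower. ATP5PD, UQCR10 and NDUFB4 were at -2.22, -2.203 and -2.12. The highest in each complex were NDUFS1 without a call (0.13, adjusted p = 0.311), UQCRFS1 (-0.63), COX4I1 (-1.43) and ATP5F1A (-0.45, adjusted p = 0.0276), whose call was lost without the first or second Combo library of either fraction (-0.33 to -0.44). Over the 4 treatments 53 genes were lower in every one, a count for which the share of all genes was not computed. NDUFA13, at 0.913 to 3.07 CPM, was the only tested subunit gene with no call in any.

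The ratio in Combo minus that in NaAsO2 was more positive in 2 genes and more negative in 0 (0.136% and 0.221% of all genes), and in 0 with the lysate as a block. Without the third Combo insoluble library 3 were more positive. The median was 0.35 and 10 of 69 values were below 0. An unadjusted p under 0.05 was reached by 18 of the 69, against 2306 of all 17666 genes. COX7A2, a small subunit of complex IV (chr6:75237675-75250323, minus strand), had 116.9, 116.9 and 122.4 CPM soluble and 17.2, 15.9 and 15.7 CPM insoluble with NaAsO2, and 87.4, 79.4 and 79.7 against 25.6, 24.5 and 21.3 CPM in Combo. All Combo pellets were higher and all Combo soluble libraries lower than their NaAsO2 counterparts, a difference of 1.08 (SE 0.22, adjusted p = 0.0256). UQCRB, a subunit of complex III, differed by 0.93 (SE 0.20, adjusted p = 0.0382). Both calls were lost with the block (1.08 and 0.93) and without any 1 of 8 of the 12 libraries compared, down to 0.95 and 0.78. The uncalled COX7B and ATP5F1C were at 1.15 and 0.78, and the lowest values were NDUFS6 at -0.76, ATP5F1D at -0.65, NDUFB7 at -0.50 and NDUFV1 at -0.44. The 3 differences share libraries, those of Ctrl or those of NaAsO2, so they are not independent.

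Between NaAsO2 and Ctrl the calls went in opposite directions in the soluble and the insoluble fraction. In the soluble fraction 9 genes were higher with NaAsO2 and 1 was lower, where 6.31% of all genes were higher and 7% lower, and the median was 0.34. Among them were ATP5F1B (0.76, 1.7-fold), ATP5F1A (0.66), UQCRC1 (0.58), NDUFS1 (0.55), ATP5PB (0.55), ATP5MC2, of the proton-conducting ring (0.52), NDUFA6 (0.43) and UQCRFS1 (0.42). None of the 9 belonged to complex IV, whose median was 0.21. NDUFV2 was lower (-0.62, SE 0.21, adjusted p = 0.0491), a call that was lost without the first or the third library of either group. With scaling by library size alone the median of all genes shifted from 0.03 to -0.15 and that of the subunits from 0.34 to 0.16. Leaving out single libraries gave 3 to 9 calls, 3 without the first Ctrl soluble library, 4 without the third NaAsO2 soluble library and 6 without the third Ctrl soluble library.

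In the insoluble fraction 32 genes were lower with NaAsO2 and 2 higher, where 21.8% of all genes were lower and 21.2% higher (median -0.41). Of complex IV 8 of 11 genes were lower and of complex V 10 of 15, with medians of -0.75 and -0.67. Of complex I 11 of 35 were lower (-0.28) and of complex III 3 of 8 (-0.39). These differences between complexes were smaller without the third NaAsO2 insoluble library. The medians were then -0.46 in complex IV, -0.55 in complex V, -0.44 in complex I and -0.40 in complex III. NDUFV2, with 21.97, 21.87 and 22.31 CPM in the Ctrl and 8.82, 7.09 and 4.63 CPM in the NaAsO2 pellets, fell by 1.66 on the log2 scale (SE 0.21, adjusted p = 3.22e-06). NDUFA10 (chr2:239892450-240025743, minus strand), with 134.8, 135.5 and 143.0 against 78.6, 68.9 and 72.3 CPM, fell by 0.91 (SE 0.10, adjusted p = 3.22e-07), and ATP5PB by 0.89 (SE 0.13). Their groups did not overlap. The 2 higher genes were NDUFB7 (0.97, SE 0.38, adjusted p = 0.0419) and ATP5F1D (1.03, SE 0.40, adjusted p = 0.0428), and both calls rested on the third NaAsO2 library: without it the values were 0.04 and -0.01 (adjusted p = 0.911 and 0.989), 40 genes were lower and 0 higher. Both were also lost without any single Ctrl insoluble library, at 0.92 to 1.05.

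RK-33 against Ctrl gave 0 calls in the soluble fraction by the edgeR quasi-likelihood test, where 2.09% of all genes were higher and 3.24% lower. There 6 of the 69 genes had an unadjusted p under 0.05, against 3109 of all 17666 genes. DESeq2 and edgeR's likelihood ratio test called 0, and a fit of the compared groups alone called 4. In the insoluble fraction 22 genes were lower and 0 higher, where 8.19% of all genes were lower and 5.71% higher, and 66 of 69 values were below 0 (median -0.50). COX6C, of complex IV, had 15.04, 15.32 and 11.59 CPM in the Ctrl and 7.21, 6.65 and 7.43 CPM in the RK-33 pellets, a fall with no overlap (log2 -0.98, SE 0.17, adjusted p = 0.000303). NDUFA9, a subunit of the matrix arm of complex I, was lower by -0.79 (SE 0.15) and ATP5PB by -0.71 (SE 0.13), from 83.0, 95.3 and 94.3 to 61.1, 51.3 and 54.4 CPM. Without the second RK-33 insoluble library 11 genes were lower, and without the second Ctrl insoluble library 13. Here a fit of the compared groups alone called 51 lower, the likelihood ratio test 29 and DESeq2 27.

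Combo against NaAsO2 gave small numbers of calls in the main fit, and the numbers depended on the fit. In the soluble fraction 5 genes were lower and 0 higher, where 1.67% of all genes were lower and 4.79% higher. They were UQCRB (-0.52, adjusted p = 0.0235), NDUFC2 (-0.53, adjusted p = 0.024), COX7A2 (-0.53, adjusted p = 0.034), NDUFS3 (-0.49) and NDUFA1 (-0.69). In this fraction 67 of 69 values were below 0, with a median of -0.42, but no more than 1 call was left when any single library of either group was left out. In the insoluble fraction COX7A2 (0.55, adjusted p = 0.0262), NDUFV2 (0.65, adjusted p = 0.0425) and NDUFA10 (0.30, adjusted p = 0.0391) were higher and 0 lower, where 6.88% of all genes were higher and 6.9% lower. With the replicate number as a block 3 were higher and 1 lower. NDUFA10 had 92.1, 88.7 and 89.8 CPM in the Combo pellets, all above the NaAsO2 pellets. The count rested on single libraries: it was 0 without the first or the second Combo insoluble library, 7 without the second NaAsO2 (2 higher, 5 lower), 10 without the third Combo (3 higher, 7 lower) and 13 without the first NaAsO2 insoluble library (3 higher, 10 lower). Without the third NaAsO2 insoluble library 1 gene was higher and 1 lower.

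The summed level of the 70 subunit genes in Ctrl was 3913, 4639 and 4095 CPM in the soluble and 2468, 2701 and 2605 CPM in the insoluble libraries. With NaAsO2 it was 5229, 5170 and 5801 CPM against 1742, 1842 and 2411 CPM, the highest soluble sums of the series. With RK-33 the group means were 4303 and 1856 CPM and in Combo 4131 and 1777 CPM. Within each of the 12 lysates the insoluble sum was the lower one, by log2 values of -0.65 to -0.78 in Ctrl, -1.27 to -1.59 with NaAsO2, -1.0 to -1.36 with RK-33 and -1.01 to -1.33 in Combo. The ranges of Ctrl did not overlap those of any treatment. Introns took 3.43% to 9.97% of the subunit genes' counts in soluble and 9.2% to 25.5% in insoluble libraries, where over all genes they took 13.3% to 28.4% and 17.2% to 37.5%.

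Other mitochondrial genes were read from lists by function. Of 77 tested mitochondrial ribosomal proteins, also made in the cytoplasm and imported, 67 were lower in the Ctrl pellet and 0 higher, and 69 with NaAsO2, with medians of -0.98 and -1.45. Of 49 tested assembly factors, which build the complexes and are not part of them, 31 were lower and 2 higher in Ctrl (median -0.71) and 32 and 4 with NaAsO2 (-0.75), and 8 were more negative and 2 more positive in the NaAsO2 difference. SDHAF3, of complex II assembly, was at -2.94 with NaAsO2 and COX19, of complex IV assembly, at 0.84. The 16 enzymes of the citric acid cycle and pyruvate dehydrogenase were divided in Ctrl, with 6 lower and 5 higher (median -0.13), while 13 were lower and 1 higher with NaAsO2 (-0.64) and 11 were more negative in the difference. CS, citrate synthase, went from -0.83 in Ctrl to -1.66 with NaAsO2, and IDH3G, of isocitrate dehydrogenase, from -0.47 to -2.05.

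Of 20 tested import components, 14 were lower in the Ctrl pellet (median -0.99) and 13 lower and 1 higher with NaAsO2 (-1.24). TIMM8B, a small chaperone of the intermembrane space, was at -2.50 and TOMM70, a receptor of the outer membrane, at 0.52. Of the 16 regulators of mitochondrial gene expression, 6 were higher and 3 lower in Ctrl (median 0.21) and 9 higher and 2 lower with NaAsO2 (0.66), with 2 more positive and 3 more negative in the difference. POLG, the mitochondrial DNA polymerase, was at 1.72 with NaAsO2 and LRPPRC, which stabilises mitochondrial mRNAs, at 1.23 (1.88 in Ctrl), but its partner SLIRP at -3.01. Of 12 tested further subunits and carriers outside the symbol rule, 9 were lower and 1 higher in Ctrl and 10 lower with NaAsO2. Cytochrome c, CYCS, was at -1.86 and the small ATP synthase subunit ATP5MK at -3.25. The 82 cytosolic ribosomal proteins, which are not mitochondrial, gave 77 lower and 1 higher in Ctrl (median -1.27) and 81 lower with NaAsO2 (-2.18), with 50 more negative in the difference (-0.85), medians near those of the subunit genes.

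The subunits are short proteins, with a median of 136.5 amino acids (51 to 727) against 482 over 13440 tested coding genes, and the fraction ratio rose with protein length. Across the 69 genes the log2 ratio and the log2 protein length had a Pearson r of 0.80 in Ctrl, 0.65 with NaAsO2, 0.71 with RK-33 and 0.67 in Combo. These points share the libraries, and across all tested coding genes r was 0.71, 0.57, 0.66 and 0.63. NDUFS1, at 727 amino acids, was the longest subunit and had the highest ratio in Ctrl. Against the trend of ratio on protein length over coding genes, the median subunit lay at -0.22 in Ctrl, with 48 of 69 genes below the trend, and at -0.94 with NaAsO2, with 63 below. With RK-33 it lay at -0.55 and in Combo at -0.62, with 64 and 62 below. The NaAsO2 minus Ctrl difference had an r of -0.10 with protein length, and 63 of 69 genes lay below its trend with a median of -0.75. With the GC content of the mRNA this difference had an r of 0.44 across the 69 genes and 0.34 across coding genes, and the Combo minus NaAsO2 difference -0.52 and -0.57.

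**Figure D5:**
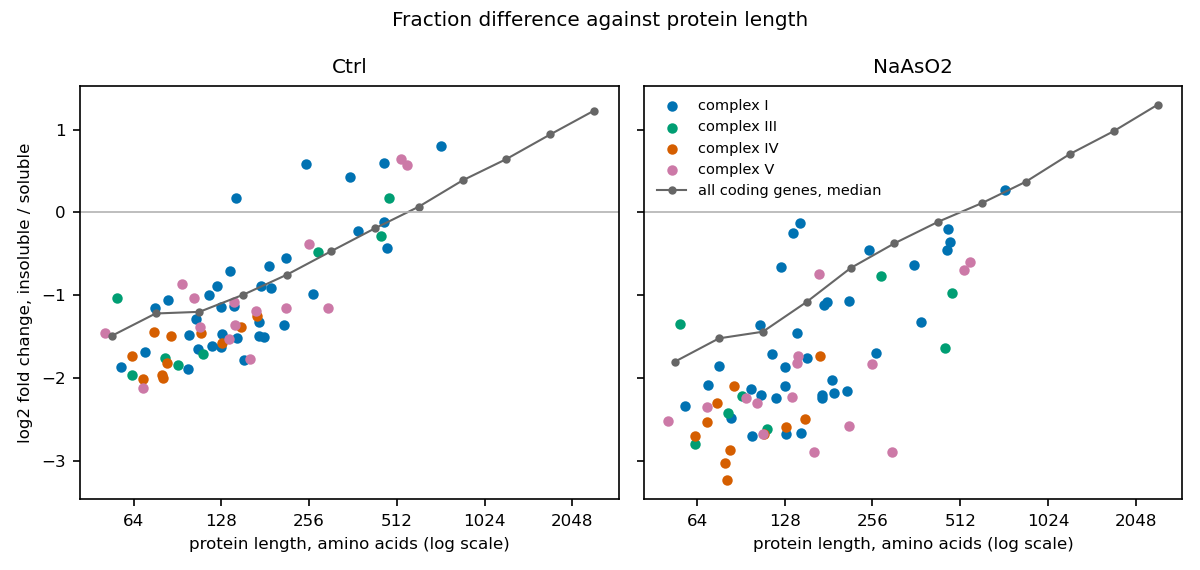
Log2 insoluble over soluble ratio of each tested subunit gene against protein length in amino acids (log axis), in Ctrl and with NaAsO2 and coloured by complex, with the median of all tested coding genes per length bin as a grey line. In Ctrl the points follow the grey line (48 of 69 below the trend) and with NaAsO2 most lie under it (63 of 69).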

How the data were processed

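RNA of 24 libraries (U2OS, rRNA-depleted, directional kit with a spike-in that was not used here) had been aligned by the authors with STAR 2.7.2b to GRCh38.p13 and counted per gene with featureCounts of Subread, without strand, introns apart from exons. The deposited values are whole-number read counts, not normalized. Back-spliced reads of circular RNAs were deposited as counts too. Without strand, antisense partners cannot be told apart, and counts split between near-identical copies are uncertain.

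Exon counts were fitted with edgeR 4.0.16 (R 4.3.3) in 1 quasi-likelihood model of 8 groups, with TMM scaling. Genes entered it when their mean reached 1 CPM. The 13 comparisons were contrasts of it, called at a Benjamini-Hochberg adjusted p under 0.05 over all 17666 genes, without a fold limit, and the script was tested on simulated data. No zero was replaced. DESeq2 1.42.0, edgeR's likelihood ratio test, other scalings, filters, a block and leaving out each library were alternatives, and a removed GC trend was added after seeing the data. Libraries held 10968059 to 19799530 exon and intron counts. Replicates differed by more than counting noise (chi-square per degree of freedom 2.39 to 142). Protein and mRNA lengths and GC content came from canonical GENCODE transcripts.

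Genes were named by rule: the lowest and highest of each complex at 10 CPM or more in a fraction comparison, the 4 lowest and 4 highest in a difference, up to 3 called in each direction in a treatment comparison, those under 10 CPM, and the extremes per kb. 1 gene that the rule names is not reported here. The genes and lists were chosen with earlier results of these data known. Fractions with the same number came from 1 lysate, as the study's methods describe. Deviations of such pairs from their group means had r of -0.288 to 0.11. Between Combo and NaAsO2 pellets of the same number r was 0.383 to 0.667, and in the other treatment comparisons -0.215 to 0.2. Libraries of different numbers were not compared between treatments, so these values cannot show whether the numbers pair them. The third pellet libraries of NaAsO2 and Combo both deviated with GC content (r = 0.71 and 0.66 across coding genes).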

Additional observations from a re-analysis of the deposited data

Results flagged for a closer look

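The difference between the fractions was itself tested between treatments, and the values that passed are listed here because the effects in the 2 treatments differed. Between NaAsO2 and Ctrl 41 subunit genes passed. Of the named ones, ATP5F1C differed by -1.74, ATP5PB by -1.45, ATP5PO by -1.42, ATP5MF by -1.37, ATP5F1B by -1.33, ATP5F1A by -1.18, NDUFA10 by -1.06, NDUFV2 by -1.04 and NDUFS1 by -0.529. Between RK-33 and Ctrl 3 genes passed, UQCRC1 (-0.986), ATP5F1B (-0.883) and ATP5PB (-0.714). Between Combo and NaAsO2 2 passed, COX7A2 (1.08) and UQCRB (0.93). Groups held 3 libraries, too few to test a single library as an outlier.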

How the results depend on the processing

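Of the 13 counts of called subunit genes, the 4 between fractions stayed within 1.5 times under all alternatives in total. The higher ones among them went from 6, 1 and 2 in Ctrl, NaAsO2 and RK-33 to 0 with a log2 fold limit of 1, to 4, 0 and 2 with the length trend removed and to 4, 0 and 0 without a filter. A fold limit of 1 on the log2 scale gave 27 calls in NaAsO2 minus Ctrl, 0 in RK-33 minus Ctrl, 1 in Combo minus NaAsO2, 0 and 8 for NaAsO2 against Ctrl (soluble, insoluble), 1 for RK-33 against Ctrl in the pellet and 0 and 0 for Combo against NaAsO2. Fits of the compared groups alone gave 21, 22 and 0 for the differences, 46 and 7, 4 and 51, and 53 and 0 for the treatment comparisons in the same order. DESeq2 gave 9 and 4 for RK-33 minus Ctrl and Combo minus NaAsO2, 16 for NaAsO2 against Ctrl soluble and 16 and 6 for Combo against NaAsO2. The likelihood ratio test gave 5 for RK-33 minus Ctrl and 12 and 6 for Combo against NaAsO2. With library size alone Combo minus NaAsO2 gave 1, NaAsO2 against Ctrl soluble 6 and Combo against NaAsO2 0 and 1, and the median of all genes shifted by 0.10, 0.13, -0.18 and 0.11 in NaAsO2 minus Ctrl, RK-33 minus Ctrl and the soluble NaAsO2 and Combo comparisons. RLE factors gave 1 for Combo against NaAsO2 in the pellet. Removing an exon length trend gave 1 for RK-33 minus Ctrl and 11 for Combo against NaAsO2 soluble. In the Combo pellet 1 was then higher and 2 lower, and DESeq2 had 3 and 3, the likelihood ratio test 4 and 2 and no filter 1 and 5, so direction there depended on the setting. Removing a GC trend, chosen after seeing the data, gave 9 for RK-33 minus Ctrl, 23 for NaAsO2 against Ctrl soluble and 29 and 1 for Combo against NaAsO2, the 1 being lower. Without a filter Combo against NaAsO2 gave 1 and 6, and at 5 CPM or more the soluble comparison 2 and RK-33 minus Ctrl 5. The cause of these changes was not tested.

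With the lysate or replicate number as a block the counts were 61, 64, 64 and 63 between fractions, 40, 1 and 0 for the differences and 10, 32, 0, 25, 6 and 4 for the treatment comparisons. It changed the calls given above and that of NDUFB7 in the NaAsO2 pellet (0.82, lost), and turned NDUFS6 in NaAsO2 minus Ctrl to -0.10.

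Leaving out 1 library gave 57 to 61, 60 to 66, 62 to 64 and 60 to 65 calls between fractions, 31 to 52, 0 to 4 and 0 to 3 for the differences and 3 to 9, 26 to 40, 0 to 0, 11 to 22, 0 to 1 and 0 to 13 for the treatment comparisons.

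Of 84 named values, 65 of them called, 3 called ones took the other sign. Removing the length trend turned NDUFS1 to -0.11 with NaAsO2 and -0.29 in Combo, NDUFA10 in Ctrl to -0.21 and COX7B in RK-33 minus Ctrl to 0.013. Removing the GC trend turned NDUFS6, ATP5F1D and NDUFB7 in NaAsO2 minus Ctrl to -0.13, -0.40 and -0.16, and ATP5F1D and NDUFB7 in Combo minus NaAsO2 to 0.19 and 0.16. Library size alone turned COX7B, NDUFA10 and UQCR10 in RK-33 minus Ctrl to 0.0215, 0.0417 and 0.0952, and 5 CPM or more turned UQCR10 to 0.00988. Single libraries left out gave ranges across 0 in NaAsO2 minus Ctrl for NDUFS6 (-0.75 to 0.73), NDUFB9 (-0.31 to 0.82), ATP5F1D (-0.57 to 0.90) and NDUFB7 (-0.46 to 0.92), in RK-33 minus Ctrl for NDUFS4 (-0.31 to 0.0239), COX7B (-0.26 to 0.11) and UQCR10 (-0.14 to 0.0761), in Combo minus NaAsO2 for NDUFS6 (-1.21 to 0.22), ATP5F1D (-1.09 to 0.38), NDUFB7 (-0.91 to 0.42) and NDUFV1 (-0.78 to 0.12), and for ATP5F1D in the NaAsO2 pellet (-0.00511 to 1.42). Depth limits the 10 genes under 10 CPM most.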

Other observations

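Among circular RNAs, 1 lay within a subunit gene, NDUFA10, with a back-splice junction at chr2:239990074-240007370. It had 44 back-splice reads over all libraries, 38 in 11 of the 12 soluble libraries and 6 in 6 of the 12 insoluble ones, where the linear reads at the junction numbered 1045 and 764. At these read numbers no treatment was compared.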
